A study of Arabidopsis thaliana with 4 samples.

Results

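The plastid genome of Arabidopsis thaliana encodes part of its own gene-expression machinery beside the photosynthesis proteins. The genes described here are the plastid genes for the RNA polymerase, for ribosomal proteins, and for a few other proteins such as the maturase MatK, a Clp protease subunit and a carboxylase subunit. The rule that selects them uses no measured value: a probe set was taken if the platform annotation assigned it to 1 plastid gene and the symbol did not start with psa, psb, pet, atp or ndh and was not rbcL. This gave 26 probe sets for 26 genes, of 69 probe sets with 1 plastid gene and 22746 non-control probe sets in all. By role, 4 encode polymerase subunits, 8 small-subunit ribosomal proteins, 7 large-subunit ribosomal proteins, and 7 other proteins. The reference lists 34 such protein-coding genes by symbol. Another 6 of them have only probe sets assigned to both copies in the inverted repeats, which are described separately. The rest have neither kind of probe set and are not described.

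Whole seedlings of the wild type (WT, Columbia accession) and of the css1 mutant were compared at an age of 9 days, with 2 independent RNA samples and so 2 one-colour Affymetrix arrays per genotype. All seedlings grew on B5 medium with 0.8% agar and 2% sucrose in continuous light of 80 µmol photons per square metre and second. The labels do not name the gene that css1 affects. From the literature, a css1 line carries a lesion in a nuclear gene whose product is an intron maturase of mitochondria, and plastid transcripts are a readout outside that organelle. Because seedlings were analysed whole, fewer plastids or green cells and less RNA in each of them cannot be told apart.

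Plastid genes are transcribed by 2 kinds of RNA polymerase. The plastid-encoded polymerase, a bacterial-type enzyme made of the products of rpoA, rpoB, rpoC1 and rpoC2 with nuclear-encoded sigma factors, transcribes most photosynthesis genes. A nuclear-encoded, phage-type polymerase transcribes the rpoB unit and accD, and both enzymes serve many other genes, including clpP. Plastid ribosomes are bacterial in type, and their proteins are encoded partly in the plastid and partly in the nucleus. Most plastid genes are cotranscribed in polycistronic units that are then cleaved and, in some genes, spliced.

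The values are log2 signals, and each probe set is compared only with itself across arrays. Across all probe sets, arrays of one genotype correlated at 0.996 (WT) and 0.997 (css1), and arrays of different genotypes at 0.982 to 0.986. With so few arrays the precision is limited, and the median standard error (SE) of the genotype difference was 0.13 log2 units for the 26 genes, against 0.10 over all probe sets. Replicates of the plastid genes were less alike than those of other genes, with a median SD of 0.18 in WT and 0.15 in css1, against 0.09 and 0.07 over all probe sets. WT replicate 2 was below WT replicate 1 for 21 of the 26 genes, and css1 replicate 2 below css1 replicate 1 for 19. The same counts were 12416 and 12782 of all 22746 probe sets, and 23 and 31 of the 43 plastid-encoded photosynthesis genes. The spike-in poly-A control probe sets had a median difference of 0.23 between css1 and WT, opposite in sign to most of the plastid genes, with array medians from -0.11 to 0.11 around the WT mean in WT and of 0.17 and 0.25 in css1. The source of this difference, and its part in the values below, was not tested. Of the green-tissue markers, 2 of 7 were measured: the light-harvesting gene LHCB4.1 had a log2 signal of 13.08 and 13.37 in WT and of 13.16 and 13.09 in css1, and PORB, for a chlorophyll synthesis enzyme, rose by 0.46 (limma adjusted p = 0.0235). The 1 of 5 root markers measured, EXPA7, had a difference of -0.33 (adjusted p = 0.123).

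Most of the 26 genes had a lower signal in css1 by a small amount, and 3 passed the test. The carboxylase gene accD fell 2.12-fold, the large-subunit ribosomal gene rpl36 fell 1.53-fold and the protease gene clpP fell 1.27-fold, while no gene rose. These 3 of 26 are 11.5%, where 15.6% of all probe sets passed, 8.01% with a lower and 7.63% with a higher signal, so the share called was near the background. A gene passed at a limma p under 0.05 after Benjamini-Hochberg adjustment across the 22746 probe sets. The log2 difference was negative for 22 of 26 genes (84.6%), against 55.1% of all probe sets, and its median was -0.34 against -0.03. Both css1 values lay below both WT values for 13 of the 26 (50%) and above them for 1, against 33.4% and 26.6% of all probe sets. Before adjustment, 11 genes were lower with p under 0.05, as were 17.4% of all probe sets. The call of accD or rpl36 was lost when certain single arrays were left out, and that of clpP when any was, as given with each gene. The genes called also changed. They were rpoB and rps14 without WT replicate 1 (13.5% of all probe sets called), rpl14, rpl16, rpl22 and rpl36 without WT replicate 2 (9.79%), and accD and cemA without css1 replicate 1 (2.9%). Without css1 replicate 2 there were 0 by limma, with 5 at an unadjusted p under 0.05, where 2.46% of all probe sets passed.

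**Figure D1:**
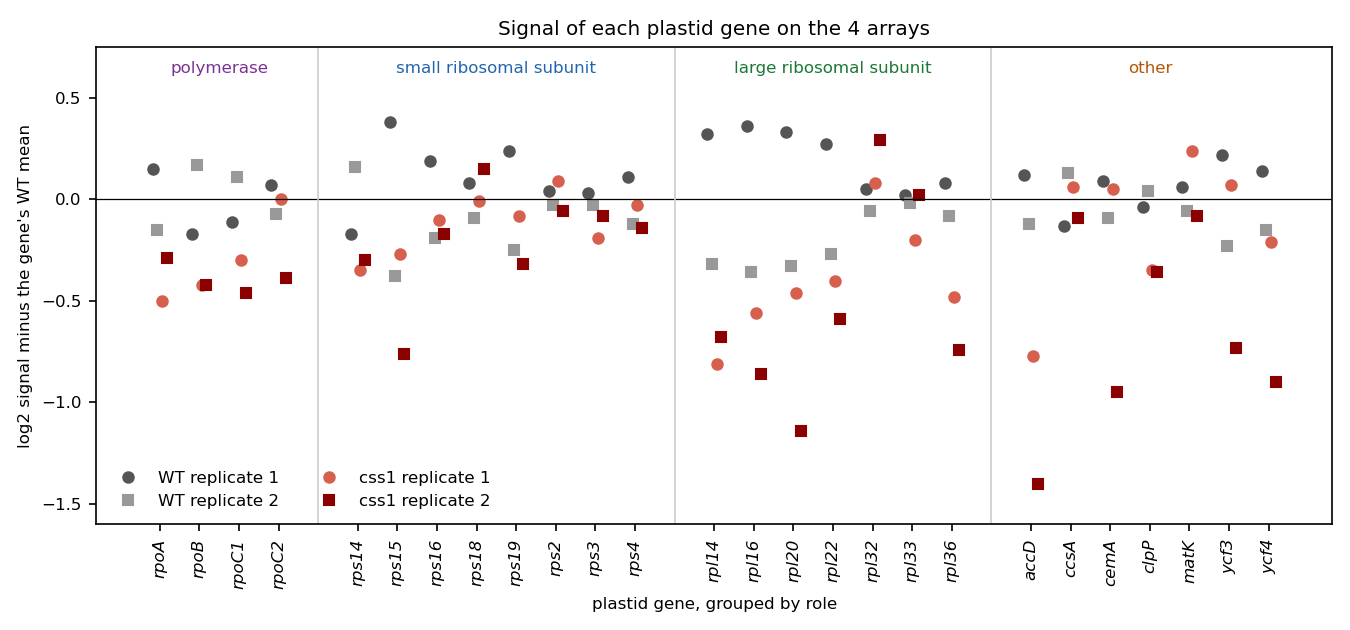
Log2 signal of each of the 26 plastid genes on each of the 4 arrays (points), plotted as the difference from the gene's WT mean and grouped by role. The css1 points of accD, rpl36 and clpP lie below both WT points. For cemA, ycf3, ycf4, accD and rpl20, css1 replicate 2 lies far below css1 replicate 1.

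The 4 polymerase genes had negative differences, 3 of them of similar size, and none passed the test. At an unadjusted p under 0.05 by limma there were 3 of 4, all lower, where 17.4% of all probe sets were lower. The median difference of the 4 genes was -0.39. The gene rpoA, for the alpha subunit that assembles the core enzyme (probe set 244978_at), had log2 signals of 11.19 and 10.89 in WT and of 10.54 and 10.75 in css1. Both css1 values were lower, with a difference of -0.39 (SE 0.14, adjusted p = 0.111 by limma). The gene rpoB, for the beta subunit (244999_at), read 3.73 and 4.07 in WT and 3.48 on both css1 arrays, a difference of -0.42 (SE 0.13, adjusted p = 0.0810). This signal is under the 30th percentile of all probe sets (4.73), so the size of the difference is uncertain. It passed without WT replicate 1, at -0.59 (adjusted p = 0.0276), and was at -0.25 without WT replicate 2 (adjusted p = 0.174). The gene rpoC1, for the beta-prime subunit (244998_at), read 8.60 and 8.82 in WT and 8.41 and 8.25 in css1, again without overlap, with a difference of -0.38 (SE 0.11, adjusted p = 0.0782). The gene rpoC2, for the beta-double-prime subunit (244997_at), read 7.67 and 7.53 in WT and 7.60 and 7.21 in css1. Here the groups overlapped, and the difference of -0.20 had a 95% interval from -0.56 to 0.16 and was -0.01 without css1 replicate 2.

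The 8 small-subunit ribosomal genes stayed closest to WT as a group, with a median difference of -0.13 and 0 of 8 past limma's threshold. At an unadjusted p under 0.05 there was 1 of 8, rps14, where 17.4% of all probe sets were lower at this level. Without WT replicate 1 the median was 0.04. The gene rps14 (245005_at) read 4.27 and 4.60 in WT and 4.09 and 4.14 in css1, without overlap but under the 30th percentile of signal. Its difference was -0.32 (SE 0.13, adjusted p = 0.149), and it passed without WT replicate 1 (-0.48, adjusted p = 0.0438) but was at -0.16 without WT replicate 2 (adjusted p = 0.366). The gene rps15 (244938_at), which is dispensable in tobacco, had the most negative difference of this group, -0.51, but also the widest interval, from -1.20 to 0.17. It read 5.71 and 4.95 in WT and 5.06 and 4.57 in css1, so the WT arrays differed from each other by more than the genotypes did. The gene rps19 (244986_at) read 11.20 and 10.71 in WT and 10.88 and 10.64 in css1, a difference of -0.20 with overlapping groups. The gene rps3 (244984_at) was at 11.18 and 11.12 in WT and at 10.96 and 11.07 in css1. Its groups did not overlap, but the difference of -0.14 did not pass (adjusted p = 0.370).

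The other 4 small-subunit genes had overlapping groups and differences close to 0. The intron-containing rps16 (245049_at) read 5.65 and 5.27 in WT and 5.36 and 5.29 in css1, a difference of -0.13. The gene rps4 (245009_at), whose bacterial counterpart starts assembly of the small subunit, read 12.47 and 12.24 in WT and 12.33 and 12.22 in css1, a difference of -0.09 with a 95% interval from -0.36 to 0.19. The gene rps2 (244996_at) read 8.87 and 8.80 in WT and 8.92 and 8.77 in css1, a difference of 0.01 with an interval from -0.23 to 0.24. The gene rps18 (244969_at), essential in tobacco, read 8.49 and 8.32 in WT and 8.40 and 8.56 in css1, a difference of 0.07 with an interval from -0.20 to 0.33. For rps2 and rps18 the intervals thus leave room for changes of up to about that size in either direction.

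The 7 large-subunit ribosomal genes had the most negative median of the 4 roles, -0.62, and spread over the widest range among the ribosomal genes. Only rpl36 passed. At an unadjusted p under 0.05 by limma, 5 of 7 were lower, as were 17.4% of all probe sets. The gene rpl36 (244980_at), whose loss in tobacco gives viable but severely affected plants, read 9.07 and 8.91 in WT and 8.51 and 8.25 in css1. Both css1 values were clearly below both WT values, and the fall of 0.62 on the log2 scale had an SE of 0.12 (adjusted p = 0.0261). The call was lost without WT replicate 1 (-0.54, adjusted p = 0.0736), css1 replicate 1 (-0.74, adjusted p = 0.0673) or css1 replicate 2 (-0.49, adjusted p = 0.154).

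For 4 other large-subunit genes the differences were as negative or nearly so, but the WT arrays differed among themselves. The gene rpl14 (244982_at) read 10.66 and 10.02 in WT and 9.53 and 9.66 in css1, a difference of -0.75 (SE 0.21, adjusted p = 0.0647). The gene rpl16 (244983_at), which has an intron, read 10.39 and 9.67 in WT and 9.47 and 9.17 in css1, a difference of -0.71 (SE 0.24, adjusted p = 0.106). The gene rpl22 (244985_at), essential in tobacco, read 10.95 and 10.41 in WT and 10.28 and 10.09 in css1, a difference of -0.50 (SE 0.19, adjusted p = 0.132). In all 3, WT replicate 1 was the highest array and the groups did not overlap. Without WT replicate 2 they passed, at -1.07 (adjusted p = 0.0148), -1.07 (adjusted p = 0.0256) and -0.77 (adjusted p = 0.0326). Without WT replicate 1 the differences shrank to -0.43 (adjusted p = 0.0715), -0.35 (adjusted p = 0.196) and -0.23 (adjusted p = 0.284). The gene rpl20 (244970_at), essential in tobacco, read 6.79 and 6.13 in WT and 6.0 and 5.32 in css1, a difference of -0.80 (SE 0.29, adjusted p = 0.123). The replicates of each genotype lay nearly as far apart as the genotype means, with replicate 2 the lower in both. The difference was -0.47 without WT replicate 1 and -0.46 without css1 replicate 2.

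The remaining 2 large-subunit genes did not share this pattern. The gene rpl32 (244960_at), essential in tobacco, read 10.84 and 10.73 in WT and 10.87 and 11.08 in css1. It was the only one of the 26 genes with both css1 values above both WT values, although its difference of 0.18 did not pass (SE 0.11, adjusted p = 0.310). The gene rpl33 (244968_at), dispensable in tobacco under normal growth, read 9.36 and 9.32 in WT and 9.14 and 9.36 in css1, a difference of -0.10 with a 95% interval from -0.36 to 0.16.

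**Figure D2:**
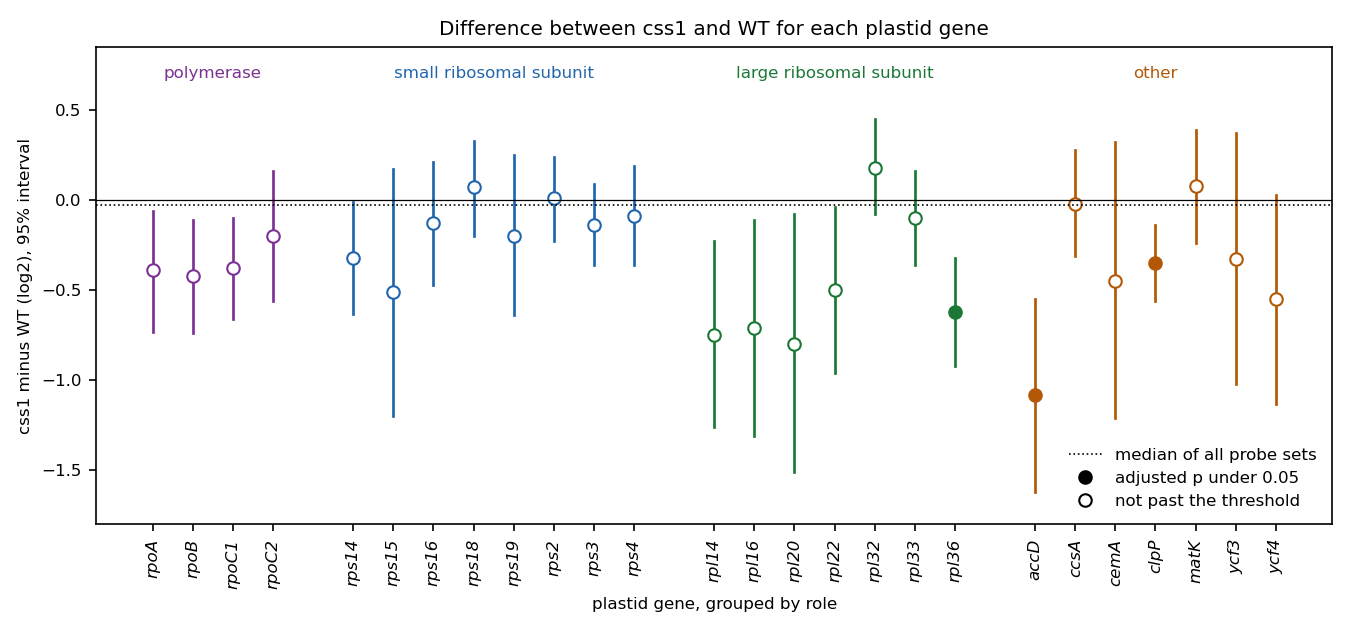
Difference between css1 and WT in mean log2 signal for each of the 26 plastid genes (points, with 95% limma intervals), grouped by role. Filled points mark accD, rpl36 and clpP, which passed at an adjusted p under 0.05, and the dotted line is the median of all probe sets at -0.03.

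Among the 7 other genes, accD and clpP fell and 5 did not pass. The gene accD (245016_at) encodes the beta subunit of the carboxyltransferase of plastid acetyl-CoA carboxylase, the enzyme that commits carbon to fatty acid synthesis. It read 6.41 and 6.17 in WT and 5.52 and 4.89 in css1. Both css1 values were well below the lower WT value, and the difference of -1.08 (SE 0.22) was the most negative of the 26 genes (adjusted p = 0.0269). The call remained without css1 replicate 1 (-1.40, adjusted p = 0.0269) and was lost without WT replicate 1 (-0.96, adjusted p = 0.0837), WT replicate 2 (-1.21, adjusted p = 0.0606) or css1 replicate 2 (-0.77, adjusted p = 0.0894).

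The gene clpP (244971_at) encodes the plastid-made proteolytic subunit of the Clp protease and is essential in tobacco. Its replicates were nearly identical, at 11.65 and 11.73 in WT and 11.34 and 11.33 in css1. The fall of 0.35 on the log2 scale (SE 0.09) thus passed despite its small size (adjusted p = 0.0466). The call was lost whichever of the 4 arrays was left out, at -0.39 to -0.31 (adjusted p = 0.0676 to 0.229), and with each array centred on its median (-0.31, adjusted p = 0.0654).

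For 3 genes of membrane proteins and assembly factors, the css1 arrays disagreed, with replicate 2 the lower. They also lay well apart for accD (5.52 and 4.89) and rpl20 (6.0 and 5.32). The gene ycf4 (245018_at), for an assembly factor of photosystem I, read 6.80 and 6.51 in WT and 6.45 and 5.76 in css1, a difference of -0.55 (SE 0.23, adjusted p = 0.178), which was -0.20 without css1 replicate 2 and -0.90 without css1 replicate 1. The gene cemA (245019_at), for a protein of the inner envelope, read 7.71 and 7.53 in WT and 7.67 and 6.67 in css1. Its difference of -0.45 rested on css1 replicate 2: it was 0.05 without that array, and it passed at -0.95 without css1 replicate 1 (adjusted p = 0.0466). The gene ycf3 (245008_at), for another assembly factor of photosystem I, read 8.73 and 8.28 in WT and 8.58 and 7.78 in css1, a difference of -0.33, which was 0.07 without css1 replicate 2. Without this array the median of the 7 other genes was 0.05, against -0.35 with all arrays. The log2 ratio of the 3′ to the 5′ actin control probe set, a sign of RNA integrity, was 1.29 on css1 replicate 2 and 1.04 to 1.09 on the other arrays, while that of GAPDH was -0.21 there and -0.42 to -0.25 elsewhere, and that of ubiquitin 0.11 and 0.12 to 0.13. Its part in these values was not tested.

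The maturase gene and the gene for cytochrome assembly differed little between genotypes. The gene matK (245048_at) encodes the plastid's own maturase for group II introns. It read 10.76 and 10.64 in WT and 10.94 and 10.62 in css1, a difference of 0.08 with a 95% interval from -0.24 to 0.39. The gene ccsA (244961_at), for a protein that attaches haem to c-type cytochromes, read 10.92 and 11.18 in WT and 11.11 and 10.96 in css1, a difference of -0.02 with an interval from -0.31 to 0.28. In both genes the groups overlapped.

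The arrays were also set against each other role by role, as the median deviation from each gene's WT mean. With 2 WT arrays, the WT deviations of each gene are equal and opposite by construction, so the WT medians do not measure how well WT replicates match. For the polymerase genes the css1 arrays gave -0.36 and -0.41, with WT at -0.02 and 0.02. These are medians of 4 genes, and the single genes were less alike. In WT, replicate 1 was above replicate 2 for rpoA and rpoC2 and below it for rpoB and rpoC1, which cancels in the median. In css1, replicate 2 was above replicate 1 for rpoA, level with it for rpoB, and below it for rpoC1 and rpoC2. For the large-subunit genes the css1 arrays gave -0.46 and -0.68, with WT at 0.27 and -0.27. For the other genes css1 replicate 1 was at 0.05, within the WT range of -0.09 to 0.09, and css1 replicate 2 at -0.72. For the small-subunit genes css1 replicate 1, at -0.09, was also level with WT replicate 2 at -0.10. Over all probe sets the 4 arrays lay between -0.04 and 0.01, which the normalization largely brings about.

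**Figure D3:**
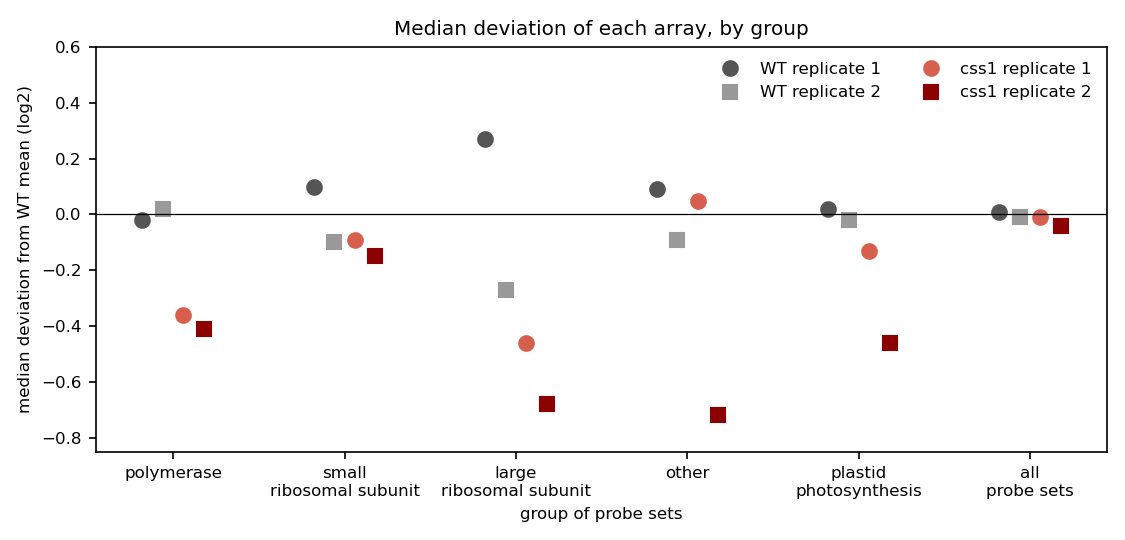
Median deviation from the WT mean (log2 units) on each array, for the 4 roles, the plastid-encoded photosynthesis genes and all probe sets. The css1 medians lie close together for the polymerase genes (-0.36 and -0.41), whose single genes were less alike. The css1 medians differ for the other genes (0.05 and -0.72). The WT medians of each group mirror each other by construction.

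The genes were next placed in the units in which plastid genes are known to be cotranscribed. In the ribosomal protein cluster, which runs from the inverted repeat to rpoA, all 7 genes with a probe set of their own had negative differences, from -0.75 to -0.14. The middle and end of the cluster (rpl16, rpl14, rpl36 and rpoA) were at -0.71, -0.75, -0.62 and -0.39. The start, rps19, was at -0.20, and the probe sets for both copies of rpl23 and rpl2 before it were at -0.18 and -0.09. The gene rpl22, next after rps19, was already at -0.50, and rps3, between rpl22 and rpl16, departed from its neighbours with -0.14. In the rpoB unit, rpoB, rpoC1 and rpoC2 were at -0.42, -0.38 and -0.20. In the clpP unit, clpP was at -0.35 and rpl20 at -0.80. The probe sets of rps12, at -0.69 and -0.46, are assigned to both repeat copies. They were placed in this unit by the gene name, and which part of rps12 each reads was not examined.

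Units that also hold photosynthesis genes were mixed. In the accD unit all 5 genes were negative: accD was at -1.08, followed by psaI at -0.37, ycf4 at -0.55, cemA at -0.45 and petA at -0.28, and only accD passed. In the psaJ unit, psaJ, rpl33 and rps18 lay within -0.10 to 0.11, and none passed. In the rps2 unit the genes went in different directions, with rps2 at 0.01, atpH, for a subunit of the ATP synthase rotor, at -0.79 (adjusted p = 0.0757) and atpA, for the alpha subunit of the same enzyme, higher by 0.66 (adjusted p = 0.0340). In the psaA unit, rps14 at -0.32 followed psaA at 0.03 and psaB at -0.17. In the rps15 unit, rps15 at -0.51 was followed by 7 genes from -0.81 to 0.07, of which ndhG, for a subunit of the plastid NDH complex, fell by 0.65 (adjusted p = 0.0466). The differences within units were not tested.

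**Figure D4:**
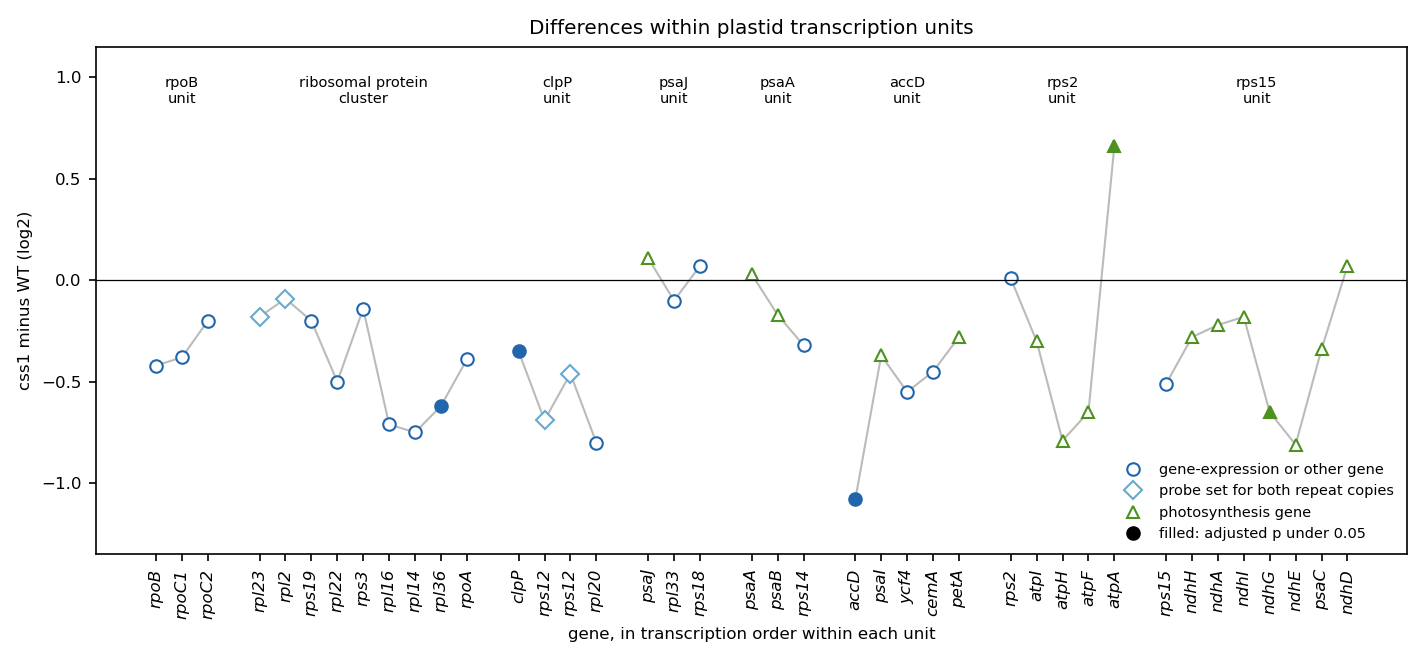
Difference between css1 and WT (log2) for genes with a probe set, in order within 8 plastid transcription units. Filled points passed at an adjusted p under 0.05. The probe sets of rps12 are drawn in the clpP unit by the gene name. In the ribosomal protein cluster and the accD unit every point is below 0, and in the rps2 unit the points run from -0.79 to 0.66.

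Genes in the inverted repeats were read by 7 probe sets that the annotation assigns to both copies of a gene, with the same symbol for each. All 7 differences were negative, with a median of -0.39, and 1 passed (14.3%, where 15.6% of all probe sets passed). The gene ycf1, for a protein of the import machinery of the inner envelope, read 10.26 and 9.88 in WT and 9.53 and 9.45 in css1. Both css1 values were below WT, and the fall of 0.57 on the log2 scale passed (SE 0.14, adjusted p = 0.0474). Its 2 annotated copies differ in length, and the probe set does not tell them apart. The ribosomal genes rps12, with -0.69 (adjusted p = 0.151) and -0.46 (adjusted p = 0.262), and rps7, with -0.39 (adjusted p = 0.327), did not pass, nor did rpl23 with -0.18 or rpl2 with -0.09. On rps7, rpl23 and the second rps12 probe set, css1 replicate 1 lay between or above the WT arrays, at 11.97, 11.25 and 10.26, and css1 replicate 2 was lower, at 11.23, 10.63 and 9.52. The gene ycf2 read 3.88 to 4.0 on all 4 arrays, under the 30th percentile of signal.

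Beside the 43 plastid-encoded photosynthesis genes, the 26 genes had a similar median but fewer calls. The photosynthesis genes had a median difference of -0.28, with 8 lower and 3 higher at the threshold (25.6% called), against -0.34, 3 and 0 for the 26 genes. The photosynthesis genes reached from -1.02 to 0.75, and the 26 genes from -1.08 to 0.18. The gap between the css1 arrays was present there too, at -0.13 and -0.46. Whether the 2 sets differ was not tested. Among the 26, the 5 genes with an intron (rpoC1, rps16, rpl16, clpP and ycf3) had a median of -0.35 and 1 call, clpP. The 21 genes without one had a median of -0.32 and 2 calls. The shares called were 20% and 9.52%, where 15.6% of all probe sets passed, so both were near the background.

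Nuclear genes for partners of these proteins had a median difference of -0.06 where they were measured. Of 91 such genes listed, 18 had a named probe set. Of these 2 rose, where 7.63% of all probe sets did, and none fell at limma's threshold, where 8.01% did. An unadjusted p under 0.05 was reached by 3 of the 18, and by 7214 of all 22746 probe sets. Nuclear genes for plastid ribosomal proteins, with 2 of 9 small-subunit and 7 of 24 large-subunit genes measured, had 0 calls by limma, also 0 at an unadjusted p under 0.05, and lay between -0.18 and 0.09. PRPL3 had the smallest p of these, with -0.18 (adjusted p = 0.220). Of the nuclear Clp protease genes, 5 of 14 were measured and 0 passed by limma, with 1 at an unadjusted p under 0.05. The adaptor gene CLPS1 was at -0.36 (adjusted p = 0.0769), and the catalytic subunit gene CLPP4 at 0.08 (adjusted p = 0.594). CAF1, for a splicing factor of plastid group II introns, rose by 0.45, from 6.34 and 6.20 in WT to 6.65 and 6.80 in css1 (SE 0.10, adjusted p = 0.0376), while the splicing factor gene CFM3A was at 0.02 (adjusted p = 0.910). The gene for the plastid NAD-dependent malate dehydrogenase (PDNAD-MDH), a protein of the FtsHi motor that also contains the ycf2 product, rose by 0.46, from 9.31 and 9.24 to 9.72 and 9.76 (SE 0.09, adjusted p = 0.0222). RPOTmp, for a phage-type polymerase of plastids and mitochondria and the 1 measured of 8 genes for nuclear polymerases and sigma factors, was at 0.15 (adjusted p = 0.30). Of the 13 genes listed for polymerase-associated proteins and the 4 for nuclear subunits of acetyl-CoA carboxylase, 0 had a probe set that the annotation assigns to that gene alone.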

How the data were processed

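Per the labels' protocols, 250 ng of total RNA gave biotinylated cRNA by the standard Affymetrix method. Such protocols usually prime at poly(A) stretches, which most plastid transcripts do not stably carry, and how this enters the values was not tested. The deposited values are log2 signals of 22810 probe sets, for which the authors used RMA (version not stated), per the submitters' processing notes. RMA gives all arrays the same distribution of probe signals, so shifts shared by all genes are largely removed. The medians over probe sets were still 6.37 and 6.36 in WT and 6.33 and 6.32 in css1. No further scaling was applied, and detection calls were not used here.

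The 64 control probe sets were left out and 22746 tested two-sided in R 4.3.3 with lmFit and eBayes of limma 3.58.1. Genotype was the sole term, with Benjamini-Hochberg adjustment over all probe sets and a threshold of 0.05. The procedure was also run on simulated data to check its mean estimates. Every simulated probe set had the same spread, unlike these data, so the simulation does not measure how reliable the calls are. Of the 22746 probe sets, 13513 are annotated to 1 gene, 503 to several, and 8730 are not listed. Gene IDs were matched to RefSeq (TAIR10.1), which gave all 69 one-gene plastid probe sets the same symbol. All 26 genes are named. From the nuclear lists, up to 4 genes with the smallest p were to be named per list, and EXPA7, LHCB4.1 and PORB are tissue markers. The transcription units and intron genes come from general knowledge of the plastid genome. The genes and lists were chosen with earlier results of these data known. Folds are 2 to the power of the log2 difference. No pair of arrays had identical values over all probe sets. Alternatives were a low-signal filter, eBayes with trend or robust, array weights, centring, quantile normalization applied again, a replicate block, leaving out each array, and, chosen after seeing the data, adding the probe sets for both repeat copies.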

Additional observations from a re-analysis of the deposited data

How the results depend on the processing

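The count of 3 genes past the threshold and the median of -0.34 were the same under the low-signal filter, trend, robust and array weights. The share of all probe sets called was 24.6%, 17.1%, 16.4% and 15.9% in these settings, against 15.6% in the main fit. The filter kept 24 of the 26 genes. With a second quantile normalization the count was 3 and the median -0.36, with 16% of all probe sets called. With the probe sets for both repeat copies added, the count was 4 and the median -0.35. With array centring the polymerase median was -0.35 and 1 of the other genes passed, since clpP did not. With centring, 42% of all calls were lower, against 51.2%. With the replicate number as a block, 2 large-subunit genes passed (rpl20 at adjusted p = 0.0377 beside rpl36 at 0.0485) and 1 other gene (accD, 0.0439), with clpP at 0.0929, while over all probe sets 1264 passed, against 3559. The labels give the numbers no shared source, and deviations of same-numbered arrays correlated at -0.01 over all probe sets, 0.34 over the 26 genes and 0.69 over the 43 plastid photosynthesis genes.

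Leaving out each array, the count ranged from 0 to 4 over all 26 genes and their median from -0.37 to -0.19. Counts ranged from 0 to 1 for polymerase and for small-subunit genes, 0 to 4 for large-subunit genes and 0 to 2 for other genes. Medians ranged from -0.41 to -0.27 for polymerase, -0.18 to 0.04 for small-subunit, -0.77 to -0.35 for large-subunit and -0.72 to 0.05 for other genes. Total calls were 560 to 3079. With 1 array left, a genotype is assumed to vary like the other. Genes that changed sign ranged from -0.15 to 0.11 (ccsA), -0.21 to 0.01 (rpl33), -0.02 to 0.15 (rps18), -0.44 to 0.05 (rps19), -0.06 to 0.08 (rps2), -0.20 to 0.03 (rps4), -0.32 to 0.06 (rps16), -0.08 to 0.24 (matK), -0.72 to 0.07 (ycf3) and -0.95 to 0.05 (cemA). With centring, ccsA was at 0.02. In all, 251 of the single-gene values kept direction and call, 14 changed sign, 12 lost and 7 gained the call. The cause was not tested. Averaging probe sets per gene was not run, since each gene has 1. Signals of rpoB and rps14 lie under the filter.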
